A study of Mus musculus with 6 samples.

Results

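The transcripts of 10 surface marker genes of neutrophil identity and maturity were followed in bone marrow neutrophils of mice lacking LRP5 in myeloid cells and of wildtype (WT) mice. The genes were Ly6g, Ly6c2, Ly6e, Cd177, Cd24a, Cd14, Cd47, Sirpa, Mme and Cd101, each of which had 1 row among the 52636 genes of the expression table. They were chosen by name, as antigens by which neutrophils are recognised and staged, with earlier results of these data known. RNA was sequenced in 6 libraries, 3 of WT and 3 of LRP5-null neutrophils, from C57BL/6N mice aged 10 weeks. The LRP5-null mice carried the genotype LRP5f/f/Lyz2Cre+, in which floxed Lrp5 alleles are cut by a Cre recombinase placed in Lyz2. Lyz2 is active in monocytes and macrophages as well as in neutrophils, so the deletion is myeloid rather than neutrophil-specific. The labels do not state whether the WT mice carried floxed alleles or Cre, nor whether each library came from a separate mouse, so p-values measure the spread between these libraries, which may be technical. Of the 10 transcripts, 9 were abundant and 1, Mme, was all but absent. None of the 9 differed between LRP5-null and WT neutrophils after adjustment over all genes, and the closest to a difference was Cd24a, which was 1278 ± 22.9 TPM (the transcript level per length, scaled to the library total, SD, n = 3) in LRP5-null and 1550 ± 221 TPM (SD, n = 3) in WT neutrophils.

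Ly6g, Ly6c2, Ly6e, Cd177, Cd24a and Cd14 encode proteins held on the outer face of the membrane by a glycosylphosphatidylinositol (GPI) lipid anchor, whereas Cd47, Sirpa, Mme and Cd101 encode proteins that span the membrane. Ly6G and Ly6C are the antigens bound by the Gr-1 antibody, and Ly6G is the standard mark of mouse neutrophils. As neutrophils mature in the bone marrow they gain Ly6G and later CD101, CD177 pairs with the integrin Mac-1, and CD47 on a cell restrains phagocytes that carry its receptor SIRPα.

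The Ly6 genes stand close together on chromosome 15 and are copies of one ancestor, which can matter for reading their levels. Of the 243 stretches of 94 bases, 1 read length, in the Ly6g transcript, 0 were shared with another gene's transcript, whereas Ly6c2 and Ly6c1 shared some. The Ly6g transcript used held only 336 bases, against 796 for Ly6c2 and 840 for Ly6c1. Any Ly6g sequence outside it was not checked, and only protein-coding transcripts were searched. In the annotation of NCBIM37 (mm9), the build named in the methods, Ly6e lies from 74785481 to 74790335, Ly6c1 from 74875447 to 74879260, Ly6c2 from 74938590 to 74942114 and Ly6g from 74987123 to 74989169. The promoters of Ly6g, Ly6c2 and Ly6c1 are shown because these near copies had very different transcript levels in the same libraries. Each stretch is the 180 bases before an annotated start of transcription, 5′ to 3′ on the strand of the gene, from RefSeq promoters of GRCm38.p6. They lie at chr15:75155149-75155328 on the plus strand for Ly6g, and on the minus strand at chr15:75111972-75112151 for Ly6c2 and chr15:75048838-75049017 for Ly6c1. Capitals mark matches to GAGGAAGT, the core bound by the myeloid factor PU.1, and to the TATA box letters TATAAA.
Ly6g: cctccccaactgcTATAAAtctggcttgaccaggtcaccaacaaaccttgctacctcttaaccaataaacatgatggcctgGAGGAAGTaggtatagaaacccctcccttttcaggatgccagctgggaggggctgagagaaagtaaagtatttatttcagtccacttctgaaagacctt
Ly6c2: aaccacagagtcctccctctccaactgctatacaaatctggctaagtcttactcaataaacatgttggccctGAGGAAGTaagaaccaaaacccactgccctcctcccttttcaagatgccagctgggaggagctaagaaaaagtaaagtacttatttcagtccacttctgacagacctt
Ly6c1: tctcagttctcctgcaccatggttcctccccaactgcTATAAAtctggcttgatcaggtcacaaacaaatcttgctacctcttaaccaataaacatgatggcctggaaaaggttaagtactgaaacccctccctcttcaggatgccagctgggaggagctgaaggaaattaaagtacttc

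Among the annotated starts of each gene, those shown were chosen to give the highest summed identity, so the identities favour likeness. Over the 250 bases upstream of these starts, Ly6g and Ly6c2 were identical at 190 of 222 aligned bases (85.6%), Ly6g and Ly6c1 at 177 of 202 (87.6%) and Ly6c2 and Ly6c1 at 170 of 210 (81%). The PU.1 core, searched on both strands, was present in both annotated promoters of Ly6g, in both of Ly6c2 and in 1 of 2 of Ly6c1, and in 2.44% of all 32851 promoters of the same length. TATAAA was found in 12.4% of all promoters, and among the markers in both promoters of Ly6g and in that of Cd177. The C/EBP letters TTGCNNAA were found in 9.56% of promoters, in 1 of 2 of Ly6g and in that of Cd101. These letters overlap neither of the other motifs. A match describes the sequence and not a bound site, and promoter sequences were matched for 6 of the 10 markers. Ly6c1 stood at 7.36 ± 2.38 TPM (SD, n = 3) in WT neutrophils, against 607 ± 82.1 TPM for Ly6c2 and 1001 ± 94.2 TPM for Ly6g (SD, n = 3 each).

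The libraries held between 249841492 and 340580330 reads, and expression was deposited as TPM, a level per transcript length scaled to one total in every library. TPM keeps no read counts, so the error of a value was taken from the spread between replicates. In every library the neutrophil genes S100a9 and S100a8 stood highest among the markers of marrow cell types, and Ly6g was at or above 920 TPM. Lrp5 was 1.12, 1.31 and 1.42 TPM in the WT libraries and 1.68, 1.77 and 2.07 TPM in those labelled LRP5-null (limma adjusted p = 0.136). The targeted transcript was thus not lower, in values given per gene that do not show the floxed part apart. Lyz2, the gene that carries Cre, was 25963 ± 1039 TPM in WT and 13792 ± 375 TPM in LRP5-null libraries (SD, n = 3 each, limma adjusted p = 0.00351). The cause of the Lyz2 difference was not tested, and each direction given here rests on the labels. Reads in ribosomal RNA made up 1.2% and 1.3% of WT replicates 1 and 2 but 3.3% of WT replicate 3 and 2.69% to 2.98% of the LRP5-null libraries. WT replicate 3 therefore resembled the LRP5-null libraries in this measure. Intronic reads made up 8.46% ± 0.622 of WT and 10.9% ± 0.305 of LRP5-null libraries (SD, n = 3 each), a difference that cannot be told apart from the genotype. Results that rest on WT replicate 3 or on the other WT libraries are given with and without them.

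Per transcript length, Cd177 stood highest, with a mean over the groups that placed it 31st by level among the 9775 genes with at least 1 TPM on average, followed by Cd24a (rank 46), Ly6g (rank 74) and Ly6c2 (rank 138). Cd14 and Sirpa were next (ranks 340 and 351), then Cd47 (rank 627), Cd101 (rank 738) and Ly6e (rank 916). The ranges of neighbours in this order met for Cd14 and Sirpa, and for Ly6e with Cd101 and with Cd47. They did not meet for Cd177 and Cd24a, for Cd24a and Ly6g, or for Ly6g and Ly6c2. The 10 transcripts summed to 5927 to 6311 TPM in the WT libraries and to 5519 to 5874 TPM in the LRP5-null libraries.

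**Figure D1:**
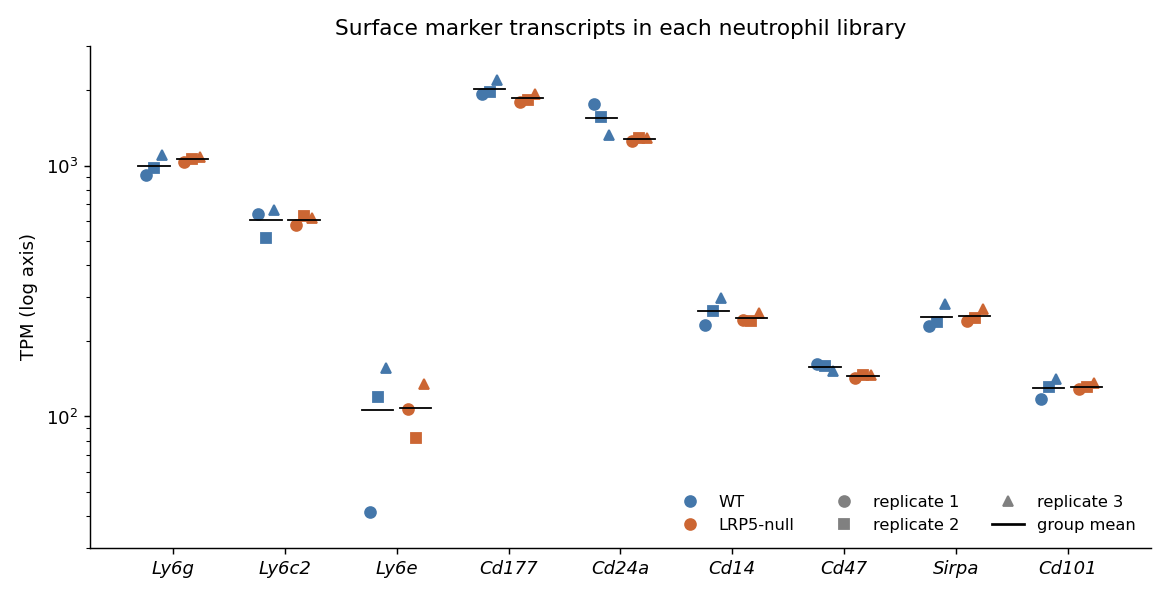
TPM on a log axis of 9 surface marker transcripts in each library, with WT in blue, LRP5-null in orange, a symbol for each replicate number and a bar for the group mean. The Ly6e value of WT replicate 1, 41.6 TPM, stands apart from the other 5 libraries, and for Cd24a and Cd47 the LRP5-null libraries lie below the WT libraries.

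Ly6g, whose protein marks the neutrophil lineage in mice, was 920, 977 and 1104 TPM in WT and 1038, 1059 and 1079 TPM in LRP5-null neutrophils. The LRP5-null libraries fell within the range of the WT libraries. The log2 fold change was 0.08 on the log2(TPM + 1) scale (95% interval −0.10 to 0.27, limma adjusted p = 0.531), which places the level in LRP5-null neutrophils between 0.936 and 1.2 times that in WT. Ly6g did not reach an adjusted p under 0.05 in any fit, but its estimate moved with the fit. With WT replicate 3 as the only WT library the estimate was −0.06. Without that library it was 0.16 (95% interval 0.03 to 0.28, limma adjusted p = 0.0773), and under quantile normalization 0.17 (limma adjusted p = 0.166). The methods describe a sort on Ly6G protein, which the labels do not mention, so the cells may have been selected for the product of this gene. In bulk RNA, fewer cells of a type and less RNA per cell cannot be told apart, here and in the results that follow.

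Ly6c2 encodes Ly6C, which is dense on inflammatory monocytes and weaker on neutrophils. It was 644, 513 and 664 TPM in WT and 578, 628 and 621 TPM in LRP5-null neutrophils, with group means of 607 and 609 TPM. The groups overlapped and the log2 fold change was 0.01 (95% interval −0.23 to 0.26, limma adjusted p = 0.952). Of the stretches of 94 bases, the read length in the deposited read summary, in the Ly6c2 transcript, 17.9% were also in Ly6c1, so some reads could have been assigned to either gene. The methods name single reads of 75 bases, at which the share was 22.7%. Ly6c1 itself was 5.40, 10.0 and 6.67 TPM in WT and 9.72, 8.32 and 7.0 TPM in LRP5-null neutrophils (log2 fold change 0.19, limma adjusted p = 0.596).

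Ly6e encodes a widely expressed, interferon-inducible Ly6 protein, and its transcript was the least steady of the markers. It was 41.6, 120 and 156 TPM in WT and 107, 81.8 and 135 TPM in LRP5-null neutrophils, a range of 3.75-fold between the lowest and highest library. WT replicate 1 alone lay far below the others, and the LRP5-null libraries lay within the WT range. The SD within groups was 0.748 on the log2 scale, larger than in 99.5% of genes tested, where the median was 0.12. Among the 1399 genes at 50 to 200 TPM, 6 had a larger SD. The log2 fold change was 0.20 (95% interval −0.86 to 1.25, limma adjusted p = 0.82) and was −0.37 without WT replicate 1 (limma adjusted p = 0.402), so its sign rests on that library. No stretch of 94 bases in the Ly6e transcript was shared with another gene's transcript.

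**Figure D2:**
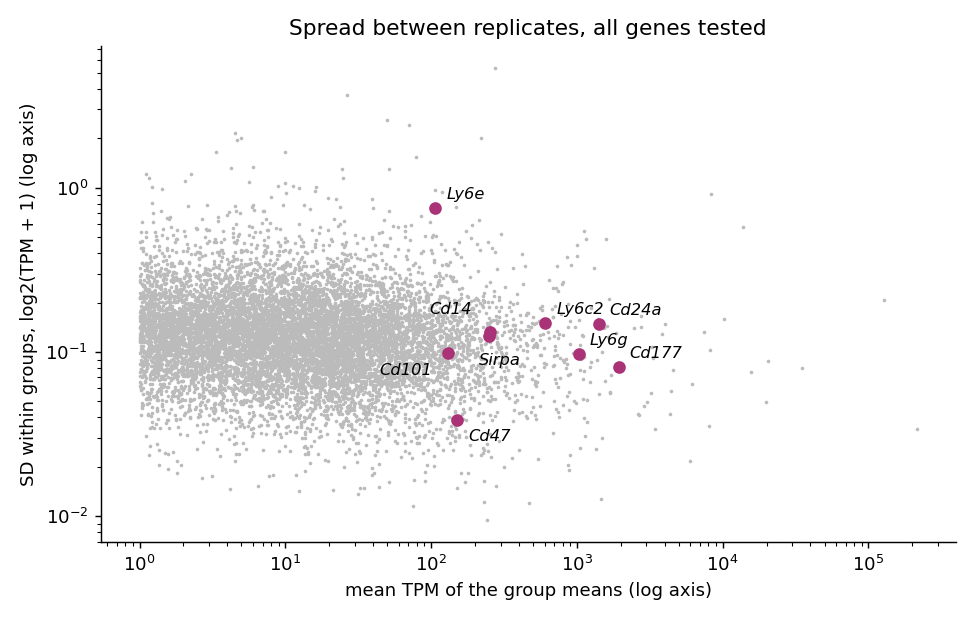
SD between replicates within groups on the log2(TPM + 1) scale against mean TPM, both on log axes, with each grey point 1 of 9775 genes and the 9 markers in purple. Ly6e, at 0.748, stands near the top of the cloud and Cd47, at 0.0387, near its bottom.

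The other markers varied far less, and in all 9 of 9 the SD on the log2 scale was larger in the WT than in the LRP5-null libraries. The same held for 72.8% of all genes tested. For Cd24a the SD was 221 TPM in WT and 22.9 TPM in LRP5-null neutrophils, and for Ly6g 94.2 and 20.4 TPM (n = 3 each).

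Cd177 encodes a GPI-linked neutrophil antigen, whose human counterpart binds the endothelial protein PECAM-1 and presents proteinase 3. Its transcript was 1936, 1961 and 2192 TPM in WT and 1792, 1829 and 1938 TPM in LRP5-null neutrophils. LRP5-null replicates 1 and 2 lay below every WT library, and LRP5-null replicate 3 lay just above WT replicate 1. The log2 fold change was −0.13 (standard error 0.0696, 95% interval −0.29 to 0.03, limma adjusted p = 0.298). Without WT replicate 3 it was −0.07 (limma adjusted p = 0.342), so its size rested in part on that library. Against WT replicate 3 alone, a fit whose spread comes from the LRP5-null libraries only, it was −0.24. With the ribosomal percentage as a covariate it was −0.21 (limma adjusted p = 0.138). Once dependence on GC content and on length had been taken out of each library, it was −0.22 and passed the threshold (standard error 0.0365, limma adjusted p = 0.0326), as 4.48% of the genes then tested did. Under quantile normalization it was 0.03. The gene lies on chromosome 7 of NCBIM37 from 25529004 to 25545330 on the minus strand, and 1.41% of its stretches of 94 bases (2.12% of those of 75 bases) were shared with BC049730.

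Cd24a encodes heat-stable antigen, a small, heavily glycosylated GPI-linked protein on neutrophils, B cell precursors and erythroblasts. It was 1765, 1563 and 1323 TPM in WT and 1252, 1292 and 1291 TPM in LRP5-null neutrophils. Each LRP5-null library lay below each WT library, though WT replicate 3, at 1323 TPM, was close to the highest of them. The log2 fold change was −0.27 (standard error 0.102, 95% interval −0.51 to −0.03, limma adjusted p = 0.181), and the exact permutation p of the TPM values was 0.1 (two-sided), which 3 against 3 cannot go below. Without WT replicate 3 it was −0.38 and passed the threshold (limma adjusted p = 0.0182), where 19.6% of all genes did. Against WT replicate 3 alone it was −0.05. With the ribosomal percentage as a covariate it was −0.12 (limma adjusted p = 0.397). Corrected for GC and length it was −0.15 (limma adjusted p = 0.171).

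Cd47, the "don't eat me" ligand of SIRPα, had the smallest relative spread of the markers. It was 162, 159 and 152 TPM in WT and 142, 147 and 147 TPM in LRP5-null neutrophils, again with each LRP5-null library below each WT library. The log2 fold change was −0.12 (standard error 0.0609, 95% interval −0.26 to 0.03, limma adjusted p = 0.287, exact permutation p = 0.1, two-sided). Against WT replicate 3 alone it was −0.06, and without that library −0.14 (limma adjusted p = 0.1). Corrected for GC and length it was −0.02 (limma adjusted p = 0.808). Cd24a and Cd47 moved together over the 6 libraries (Pearson r = 0.94), a description of libraries that share scaling and group. They were also the abundant markers of lowest GC content, 43.0% and 42.5% of their transcripts, where the other 7 lay between 50.3% and 55.4%.

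**Figure D3:**
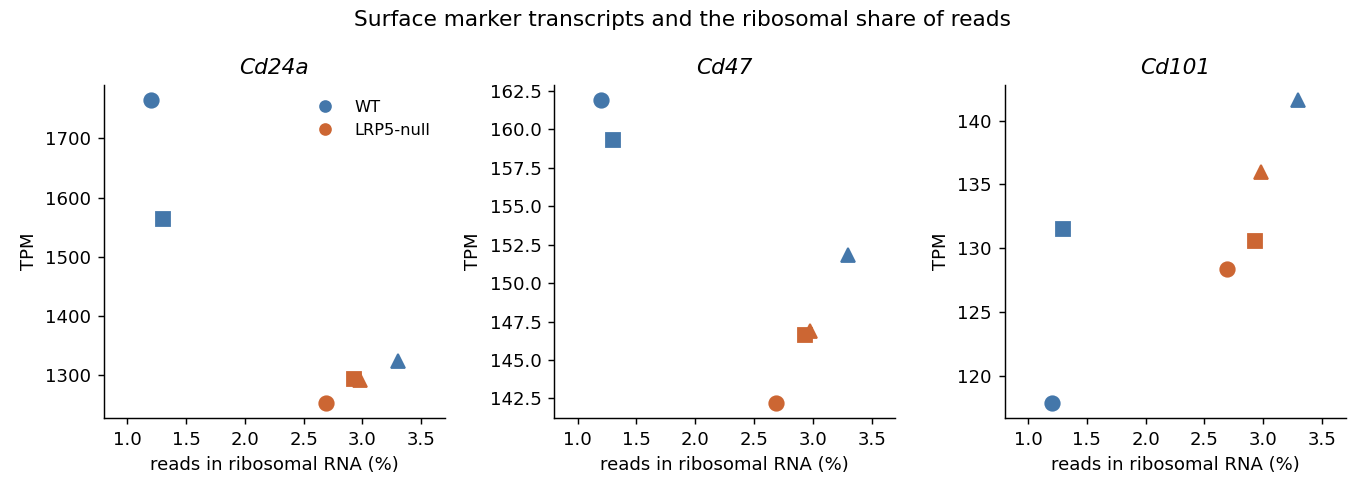
TPM of Cd24a, Cd47 and Cd101 (axes not from 0) against the percentage of reads in ribosomal RNA, with WT in blue, LRP5-null in orange and circles, squares and triangles for replicates 1 to 3. For Cd24a, WT replicate 3, at 3.3%, lies at 1323 TPM beside the LRP5-null libraries, and the WT libraries at 1.2% and 1.3% lie well above, whereas for Cd101 WT replicate 1 lies lowest.

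Of the 9 markers tested, Cd24a and Cd47 were the only ones whose groups did not overlap, and none had higher values in every LRP5-null library. Over all 9775 genes tested, 29.7% had groups that did not overlap, 12.3% with the LRP5-null libraries lower and 17.4% with them higher. The 2 of 9 markers are a share of the same order as this background. With limma, 0 of the 9 had an adjusted p under 0.05, where 0.532% of all genes tested did, and 1 of the 9, Cd24a, had an unadjusted p under 0.05, where 23.5% of all genes tested did.

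Sirpa, the receptor for CD47, was 229, 239 and 282 TPM in WT and 240, 247 and 267 TPM in LRP5-null neutrophils. The groups overlapped, with means of 250 and 251 TPM (log2 fold change 0.01, 95% interval −0.20 to 0.23, limma adjusted p = 0.951). Its close relatives Sirpb1a, Sirpb1b and Sirpb1c, which pair with an activating adaptor, stood at 14.2, 65.4 and 26.2 TPM in WT and 14.0, 66.7 and 28.3 TPM in LRP5-null neutrophils. Their limma adjusted p ranged from 0.396 to 0.909. The Sirpa transcript shared no stretch of 94 bases with another gene, and 23% of those of Sirpb1c were shared with Sirpb1a and Sirpb1b.

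Cd14 encodes the GPI-linked receptor that hands bacterial lipopolysaccharide to TLR4. It was 231, 263 and 296 TPM in WT and 242, 241 and 260 TPM in LRP5-null neutrophils, with overlapping groups (log2 fold change −0.08, 95% interval −0.31 to 0.14, limma adjusted p = 0.622). WT replicate 3 held the highest value and WT replicate 1 the lowest. Against WT replicate 3 alone, a fit whose spread comes from the LRP5-null libraries only, the difference was −0.26. Without that library it was 0.004. With the ribosomal percentage as a covariate it was −0.21 (limma adjusted p = 0.236). The size of the Cd14 difference thus depended on WT replicate 3, in the opposite way to Cd24a.

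Cd101, an immunoglobulin superfamily protein that appears late in neutrophil maturation, was 118, 132 and 142 TPM in WT and 128, 131 and 136 TPM in LRP5-null neutrophils. The LRP5-null libraries lay inside the WT range (log2 fold change 0.02, 95% interval −0.17 to 0.21, limma adjusted p = 0.912). Mme encodes CD10 (neprilysin), a mark of mature neutrophils in humans. It was listed at 0 in 5 libraries and at 0.00589 TPM in LRP5-null replicate 2, and was not tested.

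**Figure D4:**
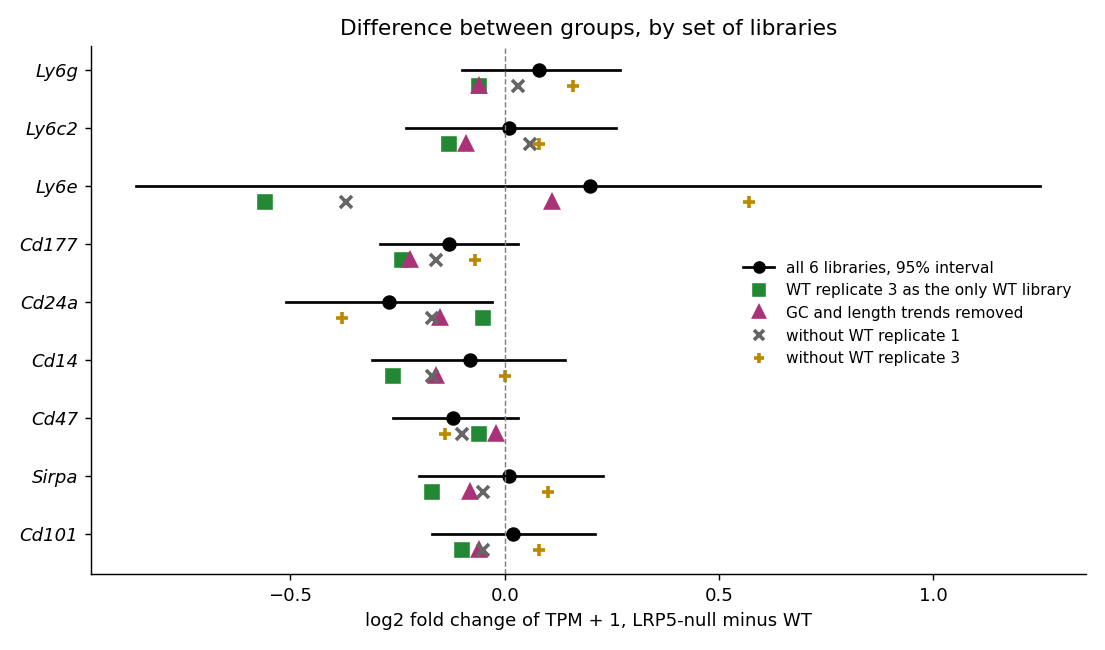
Log2 fold change of TPM + 1, LRP5-null minus WT, of 9 markers, with black points and 95% intervals from all 6 libraries and coloured symbols for fits with other libraries or with trends removed. All intervals but that of Cd24a span 0, and the estimates against WT replicate 3 alone lie lower than the black points for every marker except Cd24a and Cd47.

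Since Ly6g is carried by the cells that the study set out to obtain, the other markers were also expressed relative to Ly6g in the same library, a comparison chosen after the values were seen. The ratio of Cd177 to Ly6g was 2.10, 2.01 and 1.98 in WT and 1.73, 1.73 and 1.8 in LRP5-null neutrophils, without overlap. That of Cd14 was 0.251, 0.269 and 0.268 in WT and 0.233, 0.227 and 0.241 in LRP5-null neutrophils, and that of Cd101 was 0.130 ± 0.00374 and 0.124 ± 0.00147 (SD, n = 3 each), likewise without overlap. For each of these 3 the exact permutation p was 0.1, the lowest this design allows. A lower ratio in every LRP5-null library was found in 3 of the 8 markers and in 15.9% of all genes. In the limma fit of these ratios no marker passed the threshold, and 0.0716% of all genes did. The adjusted p was 0.157 for Cd177, 0.211 for Cd14 and 0.513 for Cd101. Division by Ly6g moved the median log2 fold change of all genes from 0.04 to −0.045. Unadjusted p were under 0.05 for Cd177 and Cd14, 2 of the 8 markers, and for 19.6% of all genes.
The ratio of Cd24a to Ly6g was 1.92, 1.6 and 1.2 in WT and 1.21, 1.22 and 1.2 in LRP5-null neutrophils, and the groups overlapped. WT replicate 3 was level with the LRP5-null libraries in this ratio, and so it was for Cd47, at 0.137 against 0.136 to 0.138.

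**Figure D5:**
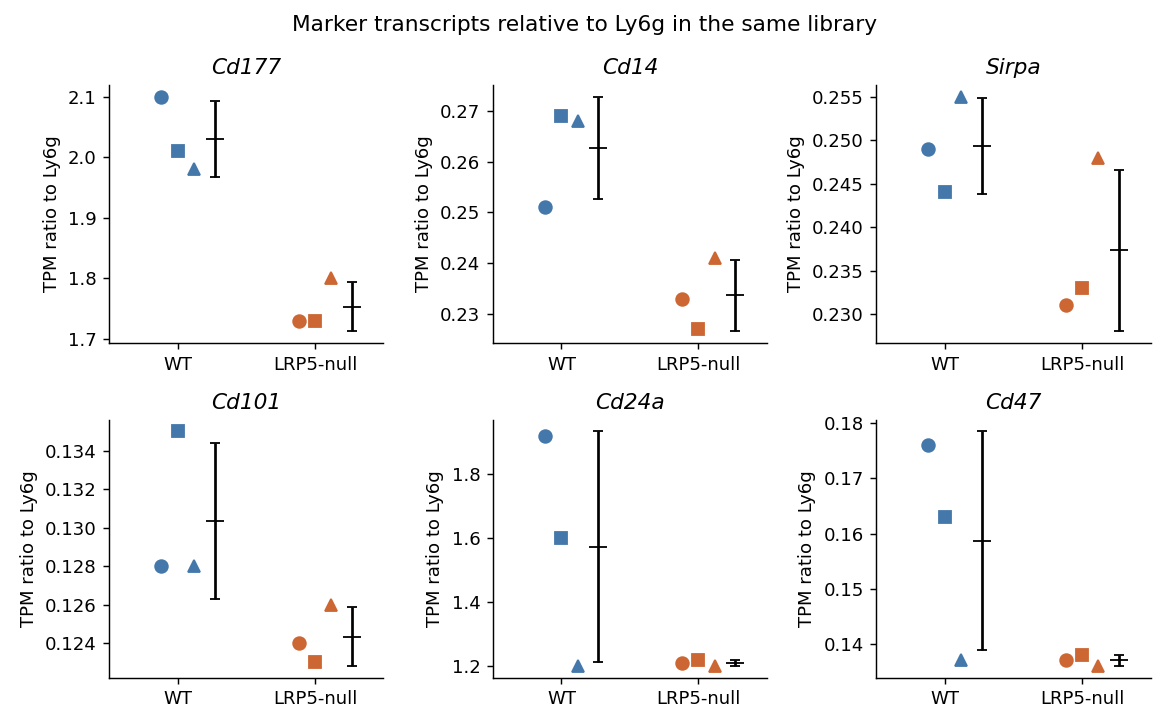
Ratio of the TPM of 6 markers to that of Ly6g in the same library (axes not from 0), with circles, squares and triangles for replicates 1 to 3 and black bars for mean ± SD. Cd177, Cd14 and Cd101 show groups apart, while for Cd24a and Cd47 WT replicate 3 sits with the LRP5-null libraries.

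Among 5228 other genes of at least 10 TPM, those whose log2(TPM + 1) followed Ly6g most closely over the 6 libraries were Prkcsh, Itpkb and Mknk2 (Pearson r = 0.997, 0.996 and 0.994). For Cd177 they were Trim8, Sf3b4 and Dusp5 (r = 0.998, 0.997 and 0.996), and for Cd24a Pitpna, Morf4l1 and Chmp5 (r = 0.999, 0.998 and 0.998). For Ly6e, looked up after its values were seen, they were Vamp5, Rasal3 and Ets1 (r = 0.993, 0.988 and 0.987), of which Vamp5 ran only from 39.0 to 43.6 TPM. These are the highest of 5228 values each, over 6 libraries that share scaling and group. Among the markers themselves, Sirpa and Cd101 had r = 0.90, Ly6e and Cd101 0.94, and Ly6g and Cd24a −0.91.

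Other genes around these markers were taken from lists. Of 36 Ly6/uPAR family genes other than the markers, 31 had a row, 18 of these were listed at 0 in every library and 7 passed 1 TPM. The highest was Plaur, the GPI-linked urokinase receptor, at 549 ± 66.0 TPM in WT and 624 ± 27.5 TPM in LRP5-null neutrophils (SD, n = 3 each, log2 fold change 0.19, limma adjusted p = 0.259). Ly6i had a limma adjusted p of 0.517. With limma 0 of the 7 had an adjusted p under 0.05, 0 an unadjusted p under 0.05, and the median log2 fold change was 0.00 where that of all genes was 0.04.

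The anchor that carries 6 of the markers is built in the endoplasmic reticulum by the PIG enzymes. Of 42 genes for its assembly, attachment and export, 32 passed 1 TPM and 0 had a limma adjusted p under 0.05, with 9 at an unadjusted p under 0.05 (23.5% of all genes) and a median log2 fold change of 0.07. The smallest p were those of Pigp, a subunit of the first enzyme, and Tmed10, which exports GPI-anchored proteins. Pigp was 1.38 ± 0.256 and 2.28 ± 0.0788 TPM and Tmed10 158 ± 3.77 and 132 ± 4.72 TPM in WT and LRP5-null neutrophils (SD, n = 3 each). Their log2 fold changes were 0.47 and −0.26 (limma adjusted p = 0.0846 and 0.101).

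Of 22 genes of the CD47 and SIRP axis, 20 passed 1 TPM, 0 were called by limma and 5 had an unadjusted p under 0.05, with a median log2 fold change of −0.08. Over all genes tested 23.5% had such a p, and the counts of this axis and of the partners of the other markers are to be read against that share. The leading genes were Calr, which encodes the phagocytic signal calreticulin, and Lyn, a Src family kinase. Calr was 144 ± 6.65 and 111 ± 3.17 TPM in WT and LRP5-null neutrophils (log2 fold change −0.37, limma adjusted p = 0.0648) and Lyn 210 ± 8.31 and 178 ± 9.66 TPM (−0.24, limma adjusted p = 0.129). Of 17 partners of CD14, 15 passed and 0 were called, with 2 at an unadjusted p under 0.05. Of these, Ly96, which encodes the lipopolysaccharide-binding MD-2, went from 14.8 ± 2.45 to 10.1 ± 0.947 TPM (−0.51, limma adjusted p = 0.102), and Tlr1 had −0.26 (limma adjusted p = 0.155). Of 13 partners of CD177, CD24 and CD101, 10 passed, 0 were called and 2, Ptgs2 and Siglecg, had an unadjusted p under 0.05 (log2 fold changes −0.34 and 0.43, limma adjusted p = 0.119 and 0.137).

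A list of 61 other surface antigens of neutrophils and their precursors had 57 genes above 1 TPM. With limma 0 of them were called and 18 had an unadjusted p under 0.05, against 23.5% of all genes. In 17 every LRP5-null library was lower and in 8 higher, where the shares over all genes were 12.3% and 17.4%, and the median log2 fold change was −0.07. Icam1, an endothelial and leukocyte adhesion ligand, was at 1.62 ± 0.196 and 2.44 ± 0.135 TPM (0.39, limma adjusted p = 0.0904). Of 20 genes of neutrophil precursors, 11 were higher in every LRP5-null library (17.4% of all genes) and 2 lower (12.3% of all genes), and limma called 1, Lyz2, at −0.91 (adjusted p = 0.00351), the gene that carries Cre. Of 22 genes of late neutrophils, 9 were lower and 2 higher in every LRP5-null library, beside the same 12.3% and 17.4% of all genes. Limma called 2 of the 22, G0s2 and Cxcl2, at −0.46 and −0.48 (adjusted p = 0.0357 and 0.0371). The calls in the precursor and late lists stand beside 0.532% of all genes tested that this fit called. Late genes had 10 calls without WT replicate 3, a fit that called 19.6% of all genes, and 0 without any other single library.

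Some of the markers are also carried by other marrow cells, whose own genes were low. Monocyte and macrophage genes, a list of 16 of which 12 passed 1 TPM, summed to 386 to 409 TPM in the WT and 410 to 449 TPM in the LRP5-null libraries, most of it from Mpeg1, Cd68 and Csf1r, which neutrophils also express. Of this list, Ccr2 and Irf8 were at or below 2 TPM in every library. Adgre1 was 11.4 ± 1.16 TPM in WT and 14.9 ± 0.651 TPM in LRP5-null libraries (SD, n = 3 each, limma adjusted p = 0.103). Of the 12 genes, 5 were higher in every LRP5-null library and 0 lower, where 17.4% and 12.3% of all genes were. B lineage genes (7 of 13 above 1 TPM), which mark cells that carry Cd24a, summed to 126 to 142 and 130 to 145 TPM, and erythroid genes (4 of 14) to 49.2 to 58.3 and 44.1 to 55.4 TPM. Dendritic cell genes (2 of 8), for cells that carry Sirpa and Cd101, summed to 13.8 to 18.2 and 20.5 to 21.5 TPM. Eosinophil, basophil and mast cell genes (4 of 12) came to 14.2 to 17.0 and 17.5 to 18.6 TPM, T and NK cell genes (2 of 12) to 12.6 to 14.9 and 16.5 to 18.4 TPM, platelet genes (2 of 8) to 3.38 to 4.84 and 5.36 to 6.19 TPM and stromal genes (1 of 8, Emcn at 0) to 1.07 to 1.53 and 1.26 to 1.69 TPM. The sums of the monocyte, dendritic, T and NK cell, platelet, and eosinophil, basophil and mast cell lists were higher in every LRP5-null library. Their part in the marker values was not tested. Of the genes in these lists, limma called 1, Prg2, an eosinophil granule gene, at 0.91 (adjusted p = 0.0341), where it called 0.532% of all genes tested.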

How the data were processed

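Bone marrow neutrophils of 3 WT and 3 LRP5-null libraries were analysed. The labels name a Percoll gradient and an mRNA kit. The methods name a stranded total RNA kit and a sort for CD11b and Ly6G, so the protein of Ly6g may have been used to choose the cells. Reads were aligned by the authors to mm9, and DESeq2 is named for quantification in the methods and in the submitters' processing notes. The authors deposited TPM, without counts per gene, and a read summary with counts of reads, percent of reads by class and a ratio of coverage at each transcript end. The tool that gave TPM is not given in the sources used here. 0 columns of other samples were found.

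The test was limma (version 3.58.1, R version 4.3.3) with its trend option and no covariates. It was run on log2(TPM + 1) of the 9775 genes whose mean reached 1 TPM, and p-values were adjusted over all of them by Benjamini-Hochberg. Fold changes on this scale understate the change of low genes. Single values were compared by exact permutation tests. The fit was tested on simulated data. GC content and length came from the longest coding transcript in GENCODE M1 (NCBIM37), which for Ly6g holds 336 bases. Promoters were aligned with Biopython 1.88. Where a symbol had several rows, the row of highest mean was used. The genes named were the 10 markers, Lrp5, Lyz2, near copies, the called genes or the 2 of smallest p in each list, some genes of the cell type lists, and the 3 most alike by Pearson r. A gene that this rule would name is not reported here. The markers and lists were chosen with earlier results of these data known. The alternatives were other pseudocounts (0.1), filters, scalings, limma options, covariates, trend removal, each library left out and, added after the data were seen, division by Ly6g and a shorter read length. The deviations of same-numbered libraries correlated weakly (r = 0.23, −0.01 and 0.13 over genes). With 3 libraries a group this cannot settle whether the numbers are pairs, and the main fit did not take them as pairs.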

Additional observations from a re-analysis of the deposited data

How the results depend on the processing

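No marker passed an adjusted p of 0.05 except Cd177 with GC and length trends removed (−0.22) and Cd24a without WT replicate 3. With each library left out, the log2 fold change of Cd24a ranged from −0.38 to −0.17, of Cd177 from −0.16 to −0.07, of Cd14 from −0.17 to 0.004, of Ly6e from −0.37 to 0.57, of Ly6c2 from −0.10 to 0.08, and of Sirpa and Cd101 from −0.05 to 0.10 and 0.08. Those of Cd24a and Cd47 were negative in every fit.
Median-ratio scaling, which moved the median of all genes from 0.04 to 0.0032, gave −0.03 for Ly6c2, Sirpa and Cd101. Quantile normalization gave 0.03 for Cd177 and 0.17 for Ly6g. With the ribosomal share as a covariate Cd24a was −0.12, Cd14 −0.21, Ly6g −0.02, Ly6c2 −0.08, Ly6e −0.34, Sirpa −0.11 and Cd101 −0.07. With trends removed Ly6g was −0.06, Ly6c2 −0.09, Sirpa −0.08 and Cd101 −0.06. Against WT replicate 3 alone, a fit in which that library is assumed to vary like the LRP5-null ones, Ly6g was −0.06, Ly6c2 −0.13, Ly6e −0.56, Sirpa −0.17 and Cd101 −0.10. Divided by Ly6g, Ly6c2, Sirpa and Cd101 were each −0.07. The cause of these changes was not tested.
Over all genes 52 were called, 26 higher and 26 lower in LRP5-null neutrophils. This became 3 without a filter, 29 at 5 TPM (10 higher), 95 when rescaled without the most abundant genes (68 higher), 4 with the replicate block, 6 with the covariate, 393 with trends removed (161 higher), 6 against WT replicate 3 alone, and 2 to 1920 with a library left out, the most without WT replicate 3. The other scalings gave 47 and 77 calls. With trends removed, 4.48% of the genes then tested were called. These included 1 of the markers, 1 gene of GPI anchor assembly, 6 neutrophil surface genes and 5 of the CD47 and SIRP axis. There were also 2 of the partners of CD177, CD24 and CD101, 2 precursor genes and 5 late genes. With a library left out, the highest counts all came without WT replicate 3, where 19.6% of all genes were called. They were 1 of 9 markers, 1 of 7 Ly6 genes, 8 of 32 GPI anchor and 13 of 57 surface genes. For the CD47 axis they were 3 of 20, for CD14 partners 1 of 15 and for partners of CD177, CD24 and CD101 2 of 10. Precursor genes had 4 of 20 and late genes 10 of 22. The lowest counts were 0, except 1 for precursor genes. Late genes had 0 calls without a filter, without a trend, with the covariate, against WT replicate 3 alone and in the other fits without a library, and precursor genes 0 without a filter. The replicate block left 0 late genes and no marker called, and whether the numbers pair the libraries is not known. WT replicate 1 correlated best with its own number, and so did WT replicate 3, but WT replicate 2 did not. Mme was below the filter in every fit that had one.
TPM without counts sets no counting error, so the spread between 3 libraries a group sets what could be detected.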
